A study of Danio rerio with 32 samples.

Results

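Zebrafish carrying the older of the study's pair of pllp mutations, the allele pd1116, were fed 1 of 2 diets, High Protein (HP) or Low Protein (LP), and the response of the whole larva to the diet is described here from 6 RNA-seq libraries of the 32 in the series. The libraries were chosen by their labels, as the 3 pllp pd1116 libraries on HP and the 3 pllp pd1116 libraries on LP. All were made from whole larvae at 20 days post fertilisation (dpf), so every group shares this age and tissue. The study's design text describes pd1116 as the mutation whose loss of survival under restriction has been adapted to, and the second allele, pd1245, as the newer mutation that still shows a survival defect. EK larvae are the wild type of the same experiment, with 3 libraries on each diet, as for pllp pd1245. A second experiment on EK and pllp pd1245 held no pd1116 larvae and was not used. The labels do not give the lesion of either allele, the number of larvae per library, or whether libraries came from separate tanks or clutches, so p-values measure the spread between these libraries, which may be technical.

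Plasmolipin, the protein made from pllp, is a small membrane-spanning protein of the endosomal system and of myelin. In the zebrafish gut it is known for its role in lysosome-rich enterocytes, the cells that take up dietary protein whole through a receptor complex of cubilin (Cubn), amnionless (Amn) and Dab2 and break it down with lysosomal cathepsins. Larvae in which these cells work poorly are known to depend more on the protein content of their food. A diet short of protein is known, in vertebrates in general, to lower secretion by the liver and signalling by insulin-like growth factor, and to raise autophagy and the transport of amino acids.

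The targeted gene was measured first. In pd1116, pllp (ENSDARG00000062756) had 6.46, 6.95 and 7.03 CPM on HP and 6.49, 8.03 and 6.88 CPM on LP. The groups overlapped and pllp did not pass the test (log2 fold change 0.06 ± 0.18, adjusted p = 0.878), a log2 difference whose sign turned, to −0.034, without LP replicate 2 (adjusted p = 0.95). In EK larvae it had 12.0, 12.5 and 11.3 CPM on HP and 12.8, 15.3 and 17.1 CPM on LP, so all 12 of these libraries kept pllp transcripts and the pd1116 libraries were the lower. In pd1245 it had 9.24, 9.22 and 10.2 CPM on HP and 7.02, 6.10 and 3.39 CPM on LP.

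The LP diet was accompanied by a wide change in pd1116. A gene is called here where edgeR's quasi-likelihood F test gave a Benjamini-Hochberg adjusted p under 0.05 over the 22742 genes tested, and all fold changes are LP over HP on the log2 scale, given ± their standard error. By this rule 1545 genes (6.79%) were called, 627 higher (2.76%) and 918 lower (4.04%), and 287 of them differed at least 2-fold, 81 higher and 206 lower. The count depended on each library. It was 768, 812 and 520 without HP replicate 1, 2 or 3 and 739, 905 and 616 without LP replicate 1, 2 or 3, and the 2-fold count was 183 without HP replicate 3. In 400 genes, 113 higher and 287 lower, the call held with each of the 6 libraries left out in turn, and most genes named below are among these. Calls described below as "held" passed that check, and for any other named call the library whose removal ended it is given. Most named genes were chosen by their calls, so a lack of overlap between their diets is a description and no further support. The share of all genes without overlap is not given.

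One library outside pd1116 also touched these counts, because all 18 libraries of the experiment share the estimate of spread. The pd1245 LP replicate 3 stood apart, with 14.5% of its counts on ribosomal protein genes against at most 9.07% in any other library. Without it 3506 genes were called in pd1116, 1721 higher (7.48%) and 1785 lower (7.76%), and with only the 6 pd1116 libraries 3636, 1687 higher (7.68%) and 1949 lower (8.87%). All 1545 genes were again called without that library, and 1523 of them with the pd1116 libraries alone. List counts for the diet response of pd1116 given below without that library stand beside the shares over all genes in that fit, 7.48% higher and 7.76% lower. Counts in the other lines and of differences between lines have other shares, given with them. Total counts on genes ran from 23424727 to 28469884 in the HP libraries and from 19838912 to 27157211 in the LP libraries. The first principal component of the 6 libraries, 43.5% of their variance, placed HP between −32.7 and −23.3 and LP between 23.4 and 29.8. The second, 19.1%, set LP replicate 2 (37.1) apart from the other libraries (−19.9 to 4.94). Mitochondrial transcripts made up 3.68 to 3.85% of counts on HP and 3.32 to 3.50% on LP, and malat1, a nuclear RNA, 0.433 to 0.451% and 0.458 to 0.529%, without overlap in either. The part of these shares in the results below was not tested.

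The 10 largest rises among genes with a mean of at least 2 CPM (a gene's counts scaled to a common library size) and no overlap between diets included genes of the liver, the notochord and innate immunity. CYP7A1, the rate-limiting enzyme of bile acid synthesis from cholesterol, had 5.87, 15.5 and 17.4 CPM on HP and 49.8, 59.4 and 60.3 CPM on LP (log2 fold change 2.12 ± 0.42, adjusted p = 0.0051). TTR, which encodes transthyretin, a carrier of thyroid hormone in plasma, had 4.21, 3.69 and 2.78 CPM on HP and 17, 10.9 and 15.9 CPM on LP (log2 fold change 2.05 ± 0.28, adjusted p = 0.0003). Both calls held, and the lack of overlap between diets was required by the choice of these genes. The notochord gene cmn, encoding calymmin, had 18, 29.7 and 15 CPM on HP and 121, 83.8 and 61 CPM on LP (log2 fold change 2.08 ± 0.37, adjusted p = 0.00244). The gene irg1l, a homologue of the mammalian enzyme that makes itaconate in macrophages, had 1.79, 1.52 and 2.32 CPM on HP and 8.76, 2.82 and 17.2 CPM on LP (log2 fold change 2.38 ± 0.43, adjusted p = 0.00277). Its LP libraries spread over a wider range than its HP libraries, with LP replicate 2 closest to HP. The fucosyltransferase gene fut9d, urgcp and zmp:0000000760 rose by 1.76, 1.48 and 1.55, and these calls held.

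Of the other rises in this group, the autophagy receptor gene CALCOCO1 (ENSDARG00000016391) had 3.06, 3.42 and 4.08 CPM on HP and 8.33, 13.8 and 17.7 CPM on LP (1.92), and its call was lost without HP replicate 1 (adjusted p = 0.078), HP replicate 2 (adjusted p = 0.0686), HP replicate 3 (adjusted p = 0.0686), LP replicate 2 (adjusted p = 0.0503) or LP replicate 3 (adjusted p = 0.0945). KLHL38 (ENSDARG00000040278), a muscle gene that is raised in fasting fish and birds, had 9.61, 9.50 and 7.03 CPM on HP and 19.4, 36.0 and 24.7 CPM on LP (1.62), and its call was lost without HP replicate 1 (adjusted p = 0.0747), HP replicate 2 (adjusted p = 0.073), HP replicate 3 (adjusted p = 0.127), LP replicate 2 (adjusted p = 0.109) or LP replicate 3 (adjusted p = 0.0646). The collagen gene col8a1a had 15.9, 21.4 and 11.3 CPM on HP and 58.3, 48.9 and 31.3 CPM on LP (1.51), and its call was lost without HP replicate 1 (adjusted p = 0.0605), HP replicate 3 (adjusted p = 0.0973) or LP replicate 1 (adjusted p = 0.0711). In all of these the LP libraries were above the HP libraries, as the choice of genes required.

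The 10 largest falls included plasma, blood, lens and bone genes, and each of these calls held. The largest was cbln6, of the cerebellin family of secreted synaptic proteins, with 6.08, 4.71 and 3.48 CPM on HP and 0.0484, 0.0495 and 0.0349 CPM on LP. These levels came from 143, 124 and 99 counts on HP and from 1 count in each LP library, a ratio of HP to LP of 108 with a 95% interval of 36.8 to 527 that covers counting error only (adjusted p = 1.59e-05). The haem-binding plasma protein gene hpxa, encoding hemopexin, had 3.95, 8.51 and 9.10 CPM on HP and 0, 0.396 and 0.279 CPM on LP (log2 fold change −4.94 ± 0.61, adjusted p = 0.00014). The globin gene hbae5 had 60.2, 44.7 and 77.4 CPM on HP and 3.68, 2.97 and 2.65 CPM on LP (log2 fold change −4.30 ± 0.52, adjusted p = 0.000114). In these genes the highest LP library was below the lowest HP library, as the choice of genes required.

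The bone gene bglapl, an osteocalcin homologue, had 20.8, 18.8 and 20.2 CPM on HP and 1.31, 3.81 and 2.76 CPM on LP (log2 fold change −2.92 ± 0.29, adjusted p = 2.28e-05). The lens gene CRYBB2, encoding a beta crystallin, had 10.3, 9.80 and 9.77 CPM on HP and 0.387, 1.24 and 0.663 CPM on LP (log2 fold change −3.72 ± 0.39, adjusted p = 3.75e-05). The apolipoprotein B gene apobb.2 had 10.1, 11.1 and 13.6 CPM on HP and 1.79, 0.446 and 1.01 CPM on LP (log2 fold change −3.42 ± 0.66, adjusted p = 0.0047). All 3 were low in every LP library, with bglapl and CRYBB2 highest in LP replicate 2 among the LP libraries. The genes mfap4.6 and gatd3l and the protease inhibitor gene spink2.5 fell by 3.16, 2.79 and 2.3, and a gene without a descriptive name (ENSDARG00000092091) completes the set. In mfap4.6 and spink2.5, HP replicate 3 (13.0 and 13.8 CPM) was well above the other HP libraries (2.98 to 4.90 CPM). Several of these genes belong to tandem families (hbae5, spink2.5, mfap4.6, the apolipoproteins and the crystallins), and counting may have split reads between near-identical copies, so their levels are uncertain.

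**Figure D1:**
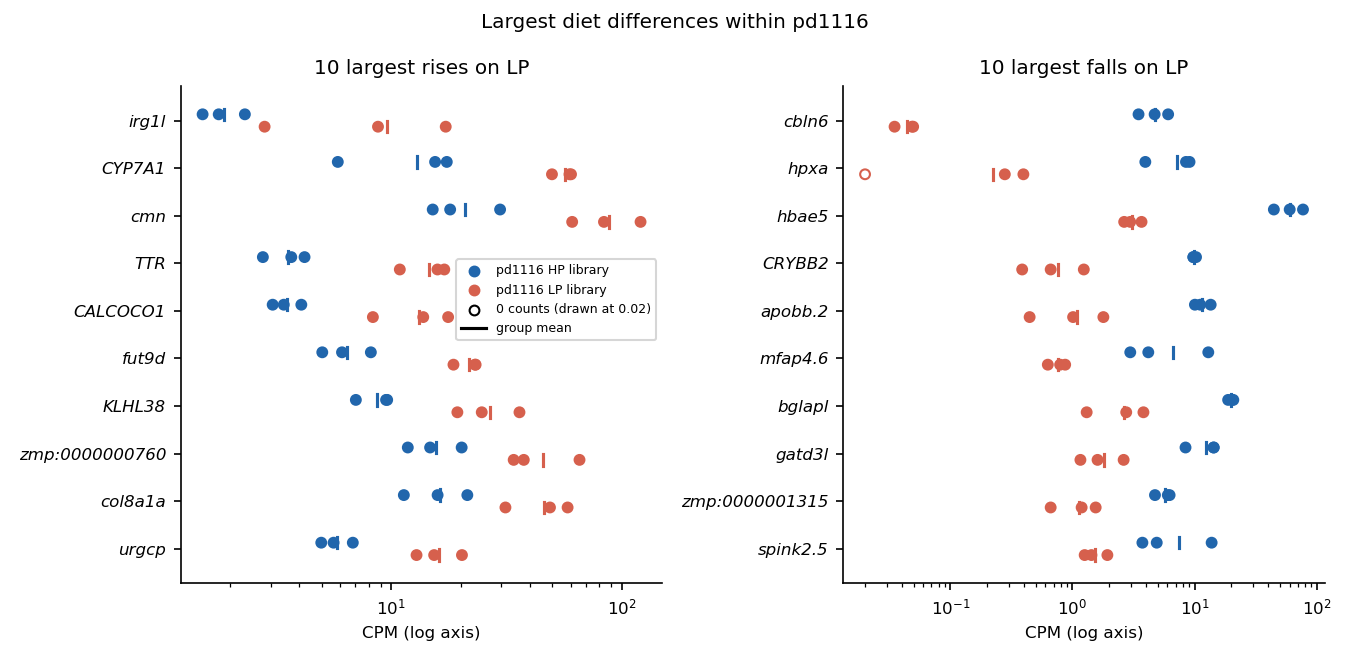
CPM on a log axis for the 10 largest rises and the 10 largest falls on the LP diet in pd1116. Each point is 1 library, vertical ticks are means of 3, and the open point is the LP library of hpxa with 0 counts. The LP and HP points of a gene do not overlap, as the choice of genes required, and cbln6 lies between 0.0349 and 0.0495 CPM on LP.

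Genes of protein uptake and lysosomal breakdown in lysosome-rich enterocytes, the pathway in which pllp acts, were lower on LP at its breakdown end. Of 28 members tested, 10 were called lower and 0 higher, or 35.7% lower against 4.04% of all genes, and 5 of these calls held. With 1 pd1116 library left out, the lower calls numbered 7, 9 and 9 without HP replicate 1, 2 or 3 and 6, 10 and 5 without LP replicate 1, 2 or 3. The median log2 fold change over the list was −0.35, beside 0.01 over all genes. The summed level of the list was 4423 to 5096 CPM on HP and 2385 to 3220.2 CPM on LP. In whole larvae, fewer cells of a type and less RNA per cell cannot be told apart, here and for every tissue below.

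Among the proteases, ctsl.1, a cathepsin L, had 1633, 1374 and 1385 CPM on HP and 671, 751 and 419.6 CPM on LP (log2 fold change −1.25 ± 0.25, adjusted p = 0.00501). The asparaginyl endopeptidase gene LGMN, which matures cathepsins, had 713, 633 and 699.9 CPM on HP and 297, 351 and 225 CPM on LP (log2 fold change −1.23 ± 0.17, adjusted p = 0.000359). The cathepsin B copy ctsbb had 262, 218 and 222 CPM on HP and 113, 130.0 and 68.3 CPM on LP (log2 fold change −1.17 ± 0.21, adjusted p = 0.00295). Every LP library of these genes lay below every HP library, and LP replicate 3 was the lowest of all. The cathepsin H gene CTSH and the serine carboxypeptidase gene SCPEP1 fell by 0.98 (adjusted p = 0.00295) and 0.94 (adjusted p = 0.000359). These 5 calls held.

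The remaining called members were amn, MAN2B1, CTSZ, CPVL and CTSA, each lost on removal of at least 1 pd1116 library. The amnionless gene amn, a subunit of the uptake receptor, had 20.3, 17.1 and 17.1 CPM on HP and 8.14, 12.1 and 7.82 CPM on LP (log2 fold change −0.96 ± 0.21, adjusted p = 0.00993), a call lost without LP replicate 1 (adjusted p = 0.0544) or LP replicate 3 (adjusted p = 0.0629). The alpha-mannosidase gene MAN2B1 (−0.76) was lost without HP replicate 1 (adjusted p = 0.09), HP replicate 2 (adjusted p = 0.058), LP replicate 1 (adjusted p = 0.0542) or LP replicate 3 (adjusted p = 0.096). CTSZ (−0.72) was lost without LP replicate 3 (adjusted p = 0.0501). CPVL (−0.66) was lost without HP replicate 1 (adjusted p = 0.0979), LP replicate 1 (adjusted p = 0.0702) or LP replicate 3 (adjusted p = 0.104). CTSA (−0.56) was lost without HP replicate 1 (adjusted p = 0.0598), HP replicate 3 (adjusted p = 0.0722), LP replicate 1 (adjusted p = 0.0552) or LP replicate 3 (adjusted p = 0.0826). In all 5 the LP libraries lay below the HP libraries.

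The receptor end of the pathway was not called beyond amn. Cubilin's gene CUBN had 198, 156 and 131 CPM on HP and 135, 144 and 75.5 CPM on LP (log2 fold change −0.45 ± 0.27, adjusted p = 0.344), and its diets overlapped. The adaptor gene dab2 (ENSDARG00000031761) had a log2 fold change of −0.04 ± 0.18 (adjusted p = 0.926) and the megalin gene LRP2 of 0.31 ± 0.14 (adjusted p = 0.185). In pd1245 larvae CUBN was called lower at −1.23 ± 0.28 (adjusted p = 0.00709) and this dab2 copy at −0.96 ± 0.19 (adjusted p = 0.00342). The test of the difference between the alleles did not pass for either (CUBN 0.78 ± 0.39, adjusted p = 0.329; dab2 0.92 ± 0.26, adjusted p = 0.118). Over the list, 18 members were called lower in pd1245 and 1 in EK, beside 9.78% and 0.106% of all genes. The medians were −0.59 and −0.05, and no member differed between pd1116 and either line. In EK the summed level was 4280.2 to 5135 CPM on HP and 3800.4 to 4566 CPM on LP.

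**Figure D2:**
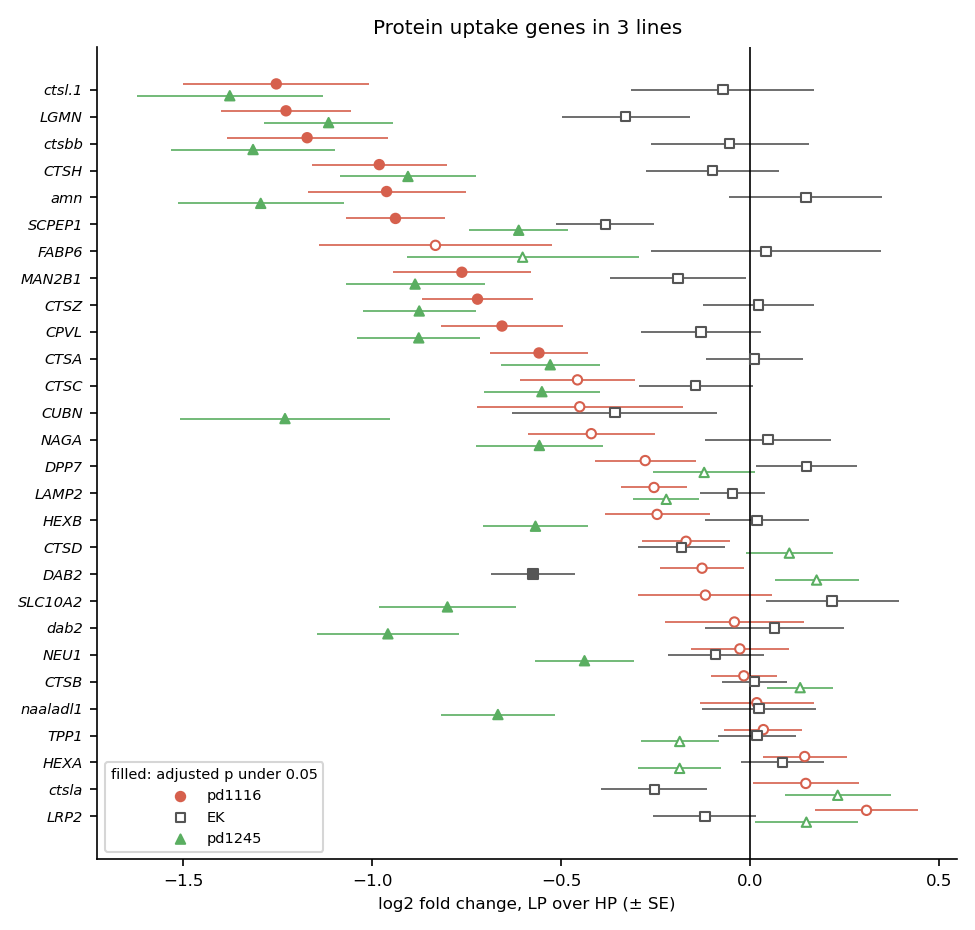
Log2 fold change of LP over HP (± SE, 3 libraries per diet) for the 28 uptake and breakdown genes in pd1116, EK and pd1245, ordered by pd1116, with filled symbols for adjusted p under 0.05. The 10 filled pd1116 points lie between −1.25 and −0.56, and the cathepsins lead.

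The rest of the digestive tract moved in both directions. Of 40 markers of anterior enterocytes and lipid absorption, 2 were called higher and 5 lower (median −0.00), and 7 and 7 without pd1245 LP replicate 3. The first counts were 5% and 12.5%, against 2.76% and 4.04% of all genes. The lower enterocyte calls numbered 2, 1 and 1 without HP replicate 1, 2 or 3 and 1, 1 and 3 without LP replicate 1, 2 or 3. SLC6A19 (ENSDARG00000091560), a neutral amino acid transporter of the brush border, had 101, 103 and 89.8 CPM on HP and 209, 170.5 and 200.4 CPM on LP (log2 fold change 0.98 ± 0.11, adjusted p = 4.26e-05). The acidic chitinase gene chia.3, a gut enzyme, had 69.2, 63.2 and 91.8 CPM on HP and 21.4, 23.3 and 16.7 CPM on LP (log2 fold change −1.87 ± 0.20, adjusted p = 3.75e-05). The first was higher in every LP library and the second lower in every LP library, and both calls held. The brush border peptidase gene dpp4 had 28.4, 24.1 and 29.4 CPM on HP and 52.0, 47.1 and 51.5 CPM on LP (log2 fold change 0.88 ± 0.12, adjusted p = 0.000332), a rise that held. Of 27 pancreatic enzyme genes, 5 were called lower (18.5% against 4.04% of all genes) and 0 higher (median −0.44, 12 lower without pd1245 LP replicate 3). Removal of 1 library gave 4, 2 and 4 without HP replicate 1, 2 or 3 and 3, 4 and 2 without LP replicate 1, 2 or 3. The held members were CPA1 (ENSDARG00000030915), a carboxypeptidase, at −0.75, and CEL (ENSDARG00000029822), a lipase, at −0.60. The goblet cell gene AGR2, a disulphide isomerase needed for mucus, had 69.5, 65.5 and 73.9 CPM on HP and 36.9, 37.7 and 38.3 CPM on LP (log2 fold change −0.89 ± 0.14, adjusted p = 0.00108).

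Amino acid and peptide transporters were more often called higher, with 5 higher and 1 lower of 38 tested (13.2% higher against 2.76% of all genes, median 0.18), and 1 of these calls held, that of SLC6A19 (ENSDARG00000091560). The higher calls numbered 2, 2 and 1 without HP replicate 1, 2 or 3 and 3, 4 and 2 without LP replicate 1, 2 or 3. The others were SLC7A7, SLC7A8, SLC38A3 (ENSDARG00000091061) and the gut peptide transporter SLC15A1 (ENSDARG00000100315). The exchanger gene SLC7A8 had 91.8, 97.9 and 82.1 CPM on HP and 127, 144 and 154 CPM on LP (log2 fold change 0.65 ± 0.15, adjusted p = 0.016), a call lost without HP replicate 1 (adjusted p = 0.0511), HP replicate 3 (adjusted p = 0.0922) or LP replicate 3 (adjusted p = 0.0753). SLC15A1 (ENSDARG00000100315) had 30.4, 26.6 and 29.5 CPM on HP and 51.2, 41.5 and 50.9 CPM on LP (0.73), a call lost without HP replicate 1 (adjusted p = 0.0741), HP replicate 2 (adjusted p = 0.106), HP replicate 3 (adjusted p = 0.0987), LP replicate 1 (adjusted p = 0.0959) or LP replicate 3 (adjusted p = 0.106). SLC7A7, which exports cationic amino acids from enterocytes, had 27.4, 24.9 and 23.2 CPM on HP and 37.5, 33.9 and 31.9 CPM on LP (0.45), a call lost without HP replicate 2 (adjusted p = 0.0528), HP replicate 3 (adjusted p = 0.0899) or LP replicate 1 (adjusted p = 0.0756). Every LP library of these 3 was above every HP library. The glutamine transporter gene SLC38A3 (ENSDARG00000091061, 0.53) was lost without HP replicate 1 (adjusted p = 0.164), HP replicate 2 (adjusted p = 0.13), HP replicate 3 (adjusted p = 0.0937), LP replicate 2 (adjusted p = 0.237) or LP replicate 3 (adjusted p = 0.0968). The kidney-type peptide transporter SLC15A2 went the other way, with 40.3, 32.3 and 35.3 CPM on HP and 21.5, 22.5 and 16.9 CPM on LP (−0.83), a call lost without HP replicate 1 (adjusted p = 0.0787), HP replicate 3 (adjusted p = 0.0619) or LP replicate 3 (adjusted p = 0.0948).

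Plasma proteins made by hepatocytes were lower on LP as a group, with a single large rise, in TTR. Of 44 tested, 15 were called lower (34.1% against 4.04% of all genes) and 2 higher (4.55% against 2.76%). In this list 40 had a fold change below 0, and the median was −0.47. The fetuin gene ahsg2, whose product binds mineral in plasma, had 218, 218 and 229 CPM on HP and 36.4, 75.6 and 37.5 CPM on LP (log2 fold change −2.16 ± 0.27, adjusted p = 0.00014). Its neighbour in the family ahsg1 had 128, 147 and 155 CPM on HP and 72.2, 82.6 and 63.2 CPM on LP (log2 fold change −0.98 ± 0.17, adjusted p = 0.00184). The protein C gene PROC (ENSDARG00000038258), an anticoagulant protease, had 3.23, 2.89 and 2.74 CPM on HP and 1.5, 1.54 and 1.36 CPM on LP (log2 fold change −1.01 ± 0.17, adjusted p = 0.00187). In all 3, and in ambp (−0.59), which encodes a plasma protease inhibitor, the call held and the diets did not overlap. The summed level of the list was 11375 to 12598 CPM on HP and 8101 to 9266 CPM on LP in pd1116. In EK it was 10142 to 10908 and 11378 to 12334 CPM, and the median was 0.08. There 1 member was called higher and 0 lower, beside 0.0484% and 0.106% of all genes. In pd1245 the median was −0.30. There 12 members were called lower and 1 higher, beside 9.78% and 9.33% of all genes. Without pd1245 LP replicate 3, 3 members were called lower in pd1245, beside 6.57% of all genes. No member differed between pd1116 and EK in the test of the difference with all libraries. Without pd1245 LP replicate 3, 8 had the lower fold change in pd1116, beside 0.552% of all genes. The lower calls took in coagulation factors and fibrinogen chains (FGB −0.77, FGG −0.64, fga −0.53), whose calls did not hold. FGB was lost without any 1 pd1116 library (adjusted p from 0.0565 to 0.116). FGG was lost without any 1 pd1116 library (adjusted p from 0.0883 to 0.138). The fga call was lost without any 1 pd1116 library (adjusted p from 0.0692 to 0.15). The list's lower calls numbered 7, 8 and 4 without HP replicate 1, 2 or 3 and 5, 10 and 6 without LP replicate 1, 2 or 3, and 27 without pd1245 LP replicate 3.

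PPARA, pparaa and SREBF1, transcription factor genes in the lists of fatty acid oxidation and synthesis, rose. PPARA, the receptor that drives fatty acid oxidation in fasting, had 4.04, 5.13 and 5.13 CPM on HP and 8.23, 10.8 and 10.3 CPM on LP (log2 fold change 1.03 ± 0.15, adjusted p = 0.000489). SREBF1, the regulator of fatty acid synthesis, had 33.5, 38.9 and 33.5 CPM on HP and 51.2, 74.6 and 58.4 CPM on LP (log2 fold change 0.80 ± 0.13, adjusted p = 0.00118). Both calls held and LP was above HP in every library. The second receptor copy pparaa had 12.5, 12.7 and 12.4 CPM on HP and 17.9, 18.8 and 17.1 CPM on LP (0.52), a call lost without HP replicate 3 (adjusted p = 0.0548). Few of the enzymes under these receptors were called. Of 37 genes of fatty acid oxidation and ketone bodies, 6 were lower without pd1245 LP replicate 3. With all libraries 2 were higher (the 2 PPARA copies) and 2 lower, 5.41% each way against 2.76% and 4.04% of all genes. The lower ones were EHHADH (−0.61), lost without LP replicate 3 (adjusted p = 0.0608), and CPT1A (−0.28), lost without any 1 pd1116 library (adjusted p from 0.0867 to 0.122). Of 24 genes of fatty acid synthesis, 2 were higher (8.33%) and 1 lower (4.17%), and 5 were lower without pd1245 LP replicate 3. Of 30 genes of cholesterol synthesis none was called by edgeR with all libraries (3 at an unadjusted p under 0.05 and 1 by DESeq2, median −0.16). With only the pd1116 libraries 5 were called lower (beside 8.87% of all genes), and 1 without pd1245 LP replicate 3. In pd1245 15 were called lower (beside 9.78% of all genes), and no member passed the test of the difference between the alleles. Among 19 bile acid genes 2 were called higher (10.5%) and 1 lower (5.26%). Beside CYP7A1, the gut hormone gene FGF19, a known repressor of CYP7A1, had 0.298, 0.190 and 0.386 CPM on HP and 1.02, 2.23 and 1.12 CPM on LP (log2 fold change 2.27 ± 0.53, adjusted p = 0.0151), at low counts, and its call was lost without HP replicate 1 (adjusted p = 0.0519), HP replicate 2 (adjusted p = 0.0674) or LP replicate 2 (adjusted p = 0.0738).

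Genes of fasting and amino acid use were called in small numbers, mostly higher. Among 34 genes of the fasting response and muscle wasting 6 were called higher and 1 lower (17.6% higher against 2.76% of all genes, median 0.20), and none of these calls held. Higher calls on this list numbered 3, 0 and 0 without HP replicate 1, 2 or 3 and 6, 0 and 0 without LP replicate 1, 2 or 3. LPIN1, a phosphatidate phosphatase raised by fasting, had 119.9, 119.9 and 109 CPM on HP and 166, 279 and 253 CPM on LP (1.0), a call lost without HP replicate 1 (adjusted p = 0.0722), HP replicate 2 (adjusted p = 0.0686), HP replicate 3 (adjusted p = 0.107), LP replicate 2 (adjusted p = 0.0977) or LP replicate 3 (adjusted p = 0.0879). IGFBP1, a fasting-induced binding protein of insulin-like growth factors, had 185, 114 and 80.8 CPM on HP and 188, 294 and 270.0 CPM on LP (0.99), a call lost without HP replicate 2 (adjusted p = 0.121), HP replicate 3 (adjusted p = 0.175), LP replicate 2 (adjusted p = 0.124) or LP replicate 3 (adjusted p = 0.113). In IGFBP1 the lowest LP library was just above the highest HP library. Of 45 autophagy and lysosome biogenesis genes 3 were called higher (6.67% against 2.76% of all genes) and 0 lower. ATG7, the activating enzyme of autophagosome formation, had 15.5, 16.3 and 16.2 CPM on HP and 22.4, 21.7 and 23.6 CPM on LP (log2 fold change 0.50 ± 0.09, adjusted p = 0.00388), and TECPR1, an autophagosome-lysosome tether, had 9.90, 8.93 and 8.43 CPM on HP and 13.9, 13.4 and 15.5 CPM on LP (log2 fold change 0.66 ± 0.13, adjusted p = 0.00544). Both rises were of modest size and both calls held.

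Amino acid breakdown genes were called higher in 6 and lower in 3 of 79 (median 0.09, and 13 and 8 without pd1245 LP replicate 3). The first counts were 7.59% higher and 3.80% lower, against 2.76% and 4.04% of all genes. The higher calls numbered 3, 2 and 2 without HP replicate 1, 2 or 3 and 4, 2 and 3 without LP replicate 1, 2 or 3. The lower ones numbered 0, 1 and 0 without HP replicate 1, 2 or 3 and 1, 3 and 0 without LP replicate 1, 2 or 3. The held calls were AASS, the first enzyme of lysine breakdown, with 33.6, 37.8 and 31.2 CPM on HP and 48.6, 49.99 and 48.9 CPM on LP (log2 fold change 0.52 ± 0.10, adjusted p = 0.00431), and cbsb, which turns homocysteine towards cysteine, with 52.5, 53.7 and 50.7 CPM on HP and 66.4, 91.9 and 80.9 CPM on LP (log2 fold change 0.61 ± 0.13, adjusted p = 0.00818). In both, every LP library was above every HP library. The integrated stress response and its ATF4 targets are known to respond to missing amino acids. Their median was 0.07, with 5 called higher and 1 lower without pd1245 LP replicate 3. With all libraries 1 of 38 was called higher (2.63% against 2.76% of all genes) and 0 lower. It was the secreted glycoprotein gene STC2 (ENSDARG00000102206), with 12.3, 11.1 and 12.1 CPM on HP and 18.3, 20.6 and 21.4 CPM on LP (log2 fold change 0.76 ± 0.16, adjusted p = 0.00891). Of 22 aminoacyl-tRNA synthetases 1 was called higher (4.5% against 2.76% of all genes), and 5 without pd1245 LP replicate 3. The 1 call, EPRS1 (0.47), was lost without HP replicate 1 (adjusted p = 0.0957), HP replicate 2 (adjusted p = 0.067), HP replicate 3 (adjusted p = 0.133), LP replicate 1 (adjusted p = 0.162) or LP replicate 3 (adjusted p = 0.0992).

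Within the growth hormone and insulin-like growth factor axis, the ligand gene IGF1 was lower. Over the 35 members tested the median log2 fold change was 0.16, with 21 above 0 and 14 below. IGF1, the growth factor itself, had 4.51, 3.95 and 4.60 CPM on HP and 2.57, 1.78 and 2.16 CPM on LP (log2 fold change −1.0 ± 0.19, adjusted p = 0.00452). Its carrier IGFBP3 had 28.2, 27 and 28.8 CPM on HP and 19.6, 21.3 and 18.3 CPM on LP (log2 fold change −0.51 ± 0.10, adjusted p = 0.0064). Both calls held, with no overlap. The acid-labile subunit gene IGFALS had 4.63, 5.97 and 5.34 CPM on HP and 2.57, 2.92 and 1.88 CPM on LP (−1.13), a call lost without any 1 pd1116 library (adjusted p from 0.059 to 0.159). In total 4 members were called higher and 4 lower of 35 (11.4% each way, against 2.76% and 4.04% of all genes), and 12 and 7 without pd1245 LP replicate 3. The higher calls numbered 3, 0 and 0 without HP replicate 1, 2 or 3 and 4, 0 and 0 without LP replicate 1, 2 or 3. The higher members were IGFBP1, igfbp1b, the insulin receptor substrate gene IRS2 (ENSDARG00000075282) and the growth hormone receptor gene ghrb. Their log2 fold changes were 0.99, 0.71, 0.47 and 0.70. The call of IGFBP1 was lost without HP replicate 2 (adjusted p = 0.121), HP replicate 3 (adjusted p = 0.175), LP replicate 2 (adjusted p = 0.124) or LP replicate 3 (adjusted p = 0.113). That of igfbp1b was lost without HP replicate 2 (adjusted p = 0.124), HP replicate 3 (adjusted p = 0.181), LP replicate 2 (adjusted p = 0.192) or LP replicate 3 (adjusted p = 0.122). IRS2 (ENSDARG00000075282) was lost without HP replicate 2 (adjusted p = 0.0555), HP replicate 3 (adjusted p = 0.0831), LP replicate 2 (adjusted p = 0.055) or LP replicate 3 (adjusted p = 0.0627), and ghrb without HP replicate 1 (adjusted p = 0.0899), HP replicate 2 (adjusted p = 0.0807), HP replicate 3 (adjusted p = 0.099), LP replicate 2 (adjusted p = 0.136) or LP replicate 3 (adjusted p = 0.0874). The deiodinase gene DIO2, which activates thyroid hormone, had 4.38, 3.76 and 4.74 CPM on HP and 2.08, 1.88 and 2.72 CPM on LP (log2 fold change −0.93 ± 0.18, adjusted p = 0.00407), a fall that held.

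Genes of protein folding in the endoplasmic reticulum (ER) were mostly lower where called. Of 52 genes of ER folding and the unfolded protein response, 9 were called lower (17.3% against 4.04% of all genes) and 0 higher (median −0.22, 40 below 0). Without pd1245 LP replicate 3, 20 were lower and 2 higher. The disulphide isomerase gene PDIA4 had 75.6, 79.4 and 63.7 CPM on HP and 41.0, 27.7 and 30.0 CPM on LP (log2 fold change −1.15 ± 0.18, adjusted p = 0.000712). HSP90B1, the ER chaperone GRP94, had 247, 227 and 212 CPM on HP and 149, 118 and 133 CPM on LP (log2 fold change −0.78 ± 0.13, adjusted p = 0.00191). The secreted ER stress protein gene MANF had 18.1, 16.1 and 17.9 CPM on HP and 12.0, 9.71 and 11.0 CPM on LP (log2 fold change −0.67 ± 0.14, adjusted p = 0.00717). These 3 calls held, and LP replicate 2 was the lowest library in each. Lower calls on the ER list numbered 4, 5 and 5 without HP replicate 1, 2 or 3 and 8, 4 and 4 without LP replicate 1, 2 or 3. Of 36 cytosolic and mitochondrial heat shock genes 6 were called lower (16.7% against 4.04% of all genes) and 1 higher. The lower heat shock calls numbered 3, 2 and 1 without HP replicate 1, 2 or 3 and 3, 2 and 1 without LP replicate 1, 2 or 3. The held one was hsp90aa1.1, the muscle chaperone of myosin, with 117, 133 and 91.4 CPM on HP and 57.8, 32.6 and 43.3 CPM on LP (log2 fold change −1.35 ± 0.25, adjusted p = 0.003). Among 48 proteasome genes 6 were lower (12.5% against 4.04% of all genes) and 0 higher (13 lower without pd1245 LP replicate 3), with PSMD8 held at −0.47. The lower proteasome calls numbered 3, 5 and 2 without HP replicate 1, 2 or 3 and 5, 2 and 4 without LP replicate 1, 2 or 3.

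Ribosomal protein genes were not called in pd1116. None of 83 passed by edgeR (0 at an unadjusted p under 0.05 and 0 by DESeq2, 55 below 0, median −0.06), and their summed level was 77439 to 79064 CPM on HP and 76569.5 to 77631 CPM on LP. In pd1245, 54 were called higher with all libraries (median 0.58) and 7 without pd1245 LP replicate 3, beside 9.33% and 5.08% of all genes. No member passed the test of the difference between the alleles. Of 78 ribosome biogenesis factors 5 were called higher (6.41% against 2.76% of all genes) and 0 lower (11 and 1 without pd1245 LP replicate 3). The higher biogenesis calls numbered 3, 4 and 1 without HP replicate 1, 2 or 3 and 2, 5 and 1 without LP replicate 1, 2 or 3. The held one was the nucleolar factor gene WDR43, with 70.6, 80.7 and 74.2 CPM on HP and 118, 106 and 119 CPM on LP (log2 fold change 0.61 ± 0.12, adjusted p = 0.00423). DNA replication and mitosis genes had no call by edgeR among 81 tested (6 at an unadjusted p under 0.05 and 1 by DESeq2, median −0.03; 2 lower without that library).

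Genes of the skeleton and its matrix were mostly lower where called. Of 43 bone and cartilage genes 12 were called lower (27.9% against 4.04% of all genes) and 1 higher (2.33% against 2.76%). The median was −0.28, and 7 of the calls held. Of 93 collagen and matrix assembly genes 15 were lower (16.1% against 4.04% of all genes) and 3 higher (3.23% against 2.76%), and 9 held. Their median was −0.28, and 36 and 8 were called without pd1245 LP replicate 3. Lower calls among bone and cartilage genes numbered 7, 8 and 7 without HP replicate 1, 2 or 3 and 8, 11 and 6 without LP replicate 1, 2 or 3. Among collagen and matrix genes they numbered 11, 13 and 9 without HP replicate 1, 2 or 3 and 10, 11 and 9 without LP replicate 1, 2 or 3. The summed level of the collagen list was 18555 to 19256 CPM on HP and 11965 to 15274 CPM on LP. In EK the medians were −0.31 for the collagen list and −0.24 for the bone list. There 0 and 1 were called lower, beside 0.106% of all genes. In pd1245 they were −0.54 and −0.46, with 40 and 12 called lower, beside 9.78% of all genes. With all libraries no member of either list differed between pd1116 and EK. From pd1245, 3 collagen list members and 1 bone list member differed, all with the higher fold change in pd1116 (0.484% of all genes).

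Among mineralised tissue genes, mgp, encoding a matrix protein that inhibits calcification, had 2.00, 1.52 and 1.72 CPM on HP and 0.339, 0.248 and 0.384 CPM on LP (log2 fold change −2.39 ± 0.35, adjusted p = 0.000562). The cartilage gene ucmaa, encoding a Gla-rich matrix protein, had 18, 13.2 and 20.0 CPM on HP and 3.63, 4.51 and 4.26 CPM on LP (log2 fold change −2.04 ± 0.19, adjusted p = 1.59e-05). The secreted calcium-binding phosphoprotein gene scpp1 had 17.5, 18.8 and 20.0 CPM on HP and 8.43, 7.83 and 5.48 CPM on LP (log2 fold change −1.38 ± 0.24, adjusted p = 0.00238). Together with bglapl, all were low in every LP library and their calls held. The calls of fgfbp2a (−1.62) and of the cartilage proteoglycan gene snorc (−1.04) also held. The early osteoblast transcription factor gene SP7 had 9.99, 10.7 and 9.34 CPM on HP and 4.36, 5.85 and 4.71 CPM on LP (log2 fold change −1.01 ± 0.28, adjusted p = 0.0388), a call lost without any 1 pd1116 library (adjusted p from 0.0605 to 0.126). The single rise was MATN3 (ENSDARG00000069245), a cartilage matrilin, with 18.4, 23.8 and 17.2 CPM on HP and 55.2, 41.4 and 33.8 CPM on LP (log2 fold change 1.13 ± 0.19, adjusted p = 0.00187), and this call held.

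The matrix assembly calls took in collagens and the enzymes that modify them. COL10A1 (ENSDARG00000101535), a collagen of cartilage and forming bone, had 38.2, 29.8 and 40.9 CPM on HP and 9.68, 6.14 and 7.29 CPM on LP (log2 fold change −2.24 ± 0.38, adjusted p = 0.00184). LOX, the lysyl oxidase that crosslinks collagen, had 23.9, 20.2 and 22.1 CPM on HP and 8.72, 11.5 and 8.13 CPM on LP (log2 fold change −1.23 ± 0.16, adjusted p = 0.000253). P4HA1, a subunit of prolyl 4-hydroxylase, had 7.01, 7.87 and 7.59 CPM on HP and 3.78, 2.97 and 3.70 CPM on LP (log2 fold change −1.10 ± 0.15, adjusted p = 0.0003). Every LP library of these genes lay below every HP library, and the calls held, as they did for COL8A1 (−1.70), the proteoglycan gene BGN (ENSDARG00000017884, −1.32), LOXL2 (−0.98), P3H1 (−0.77), FKBP10 (ENSDARG00000045129, −0.76) and SPARC (−0.71). Rises in col8a1a, col9a1b (0.88) and col28a2a (0.51) ran against this, and none of these calls held. The col8a1a call was lost without HP replicate 1 (adjusted p = 0.0605), HP replicate 3 (adjusted p = 0.0973) or LP replicate 1 (adjusted p = 0.0711). The col9a1b call was lost without HP replicate 1 (adjusted p = 0.0778), HP replicate 2 (adjusted p = 0.0565), HP replicate 3 (adjusted p = 0.103) or LP replicate 1 (adjusted p = 0.142). The col28a2a call was lost without any 1 pd1116 library (adjusted p from 0.0552 to 0.123).

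Myelin genes were lower. Of 16 myelin and oligodendrocyte genes 6 were called lower (37.5% against 4.04% of all genes) and 0 higher (median −0.38, 15 below 0). Myelin basic protein's gene mbpa had 219, 199 and 229.9 CPM on HP and 85.4, 114 and 99.5 CPM on LP (log2 fold change −1.11 ± 0.12, adjusted p = 3.75e-05). The proteolipid gene plp1b had 72.3, 69.5 and 74.4 CPM on HP and 32.5, 35.6 and 32.6 CPM on LP (log2 fold change −1.10 ± 0.12, adjusted p = 3.75e-05). Both fell to about the same extent, with no overlap and a call that held. The 6 lower calls of the list became 6, 5 and 3 without HP replicate 1, 2 or 3 and 3, 6 and 3 without LP replicate 1, 2 or 3. The summed level was 741 to 799 CPM on HP and 461 to 523 CPM on LP in pd1116, and in EK 609.7 to 715 and 495 to 535 CPM. In EK 2 members were called lower and in pd1245 6, beside 0.106% and 9.78% of all genes. None differed between pd1116 and EK. From pd1245 1 member differed, plp1b, with a difference in log2 fold change of −0.87, adjusted p = 0.0268 (0.132% of all genes had the lower fold change).

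Neuronal genes had smaller falls. Of 33 tested, 8 were called lower (24.2% against 4.04% of all genes) and 0 higher (median −0.17), and 5 held. The stathmin gene STMN2 (ENSDARG00000070537), of growing axons, had 87.3, 86.9 and 82.9 CPM on HP and 56.5, 55.8 and 49.8 CPM on LP (log2 fold change −0.67 ± 0.12, adjusted p = 0.00211). The neurofilament gene nefma had 89.0, 83.1 and 90.8 CPM on HP and 52.2, 61.4 and 55.1 CPM on LP (log2 fold change −0.64 ± 0.09, adjusted p = 0.000562). The growth cone gene gap43 had 34.7, 37.6 and 34.3 CPM on HP and 21.6, 25.3 and 22.8 CPM on LP (log2 fold change −0.61 ± 0.13, adjusted p = 0.00935). The groups did not overlap in any of these axonal genes. Removal of 1 library left the lower calls at 6, 7 and 6 without HP replicate 1, 2 or 3 and 5, 7 and 6 without LP replicate 1, 2 or 3. With all libraries the neuron list differed in the sign of its median from pd1245 (0.10). There 4 members were called higher and 2 lower, beside 9.33% and 9.78% of all genes. Without pd1245 LP replicate 3 the pd1245 calls were 1 higher and 4 lower, beside 5.08% and 6.57% of all genes. No member passed the test of the difference between the alleles.

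In the eye, most called photoreceptor genes and a minority of the lens genes were lower. Of 46 photoreceptor genes 11 were called lower (23.9% against 4.04% of all genes) and 3 higher (6.52% against 2.76%, median −0.20). The held ones belonged to the rod and its signalling cascade: PDE6B (ENSDARG00000000380), a phosphodiesterase subunit, with 26.1, 23.8 and 31.8 CPM on HP and 15.4, 17.2 and 18.3 CPM on LP (log2 fold change −0.68 ± 0.11, adjusted p = 0.00107), GNAT1, the rod transducin, at −0.58, and the arrestin gene sagb at −0.64. The cone phosphodiesterase gene PDE6C had 394, 372 and 276 CPM on HP and 461, 479 and 505 CPM on LP (log2 fold change 0.47 ± 0.12, adjusted p = 0.0286), a rise whose call was lost without HP replicate 2 (adjusted p = 0.0526), HP replicate 3 (adjusted p = 0.158), LP replicate 1 (adjusted p = 0.0608), LP replicate 2 (adjusted p = 0.0748) or LP replicate 3 (adjusted p = 0.111). The other higher calls were cngb1a, lost without any 1 pd1116 library (adjusted p from 0.0869 to 0.182), and CRX (ENSDARG00000043483). That of CRX was lost without any 1 pd1116 library but HP replicate 1 (adjusted p from 0.0715 to 0.189). Lower photoreceptor calls numbered 4, 11 and 5 without HP replicate 1, 2 or 3 and 4, 8 and 8 without LP replicate 1, 2 or 3. Among the lower calls were the cone opsin genes opn1mw2, opn1mw3 and opn1lw1. The opn1mw2 call was lost without HP replicate 1, LP replicate 1 or LP replicate 2 (adjusted p from 0.0688 to 0.101). That of opn1mw3 was lost without HP replicate 1, LP replicate 1 or LP replicate 3 (adjusted p from 0.0507 to 0.0789). The opn1lw1 call was lost without HP replicates 1 or 3 or LP replicates 1 or 3 (adjusted p from 0.0866 to 0.101). Of 63 genes of crystallins and other lens proteins 10 were called lower (15.9% against 4.04% of all genes) and 0 higher, and 9 held. The list's median was 0.02 and its summed level 9948 to 11139.7 CPM on HP and 10532 to 11513 CPM on LP. The gamma crystallin gene crygm2e had 68.3, 59.6 and 81.4 CPM on HP and 21.8, 31.1 and 26 CPM on LP (log2 fold change −1.41 ± 0.16, adjusted p = 6.9e-05), and crygm1 had 22.9, 18.8 and 24.7 CPM on HP and 5.08, 7.23 and 6.46 CPM on LP (log2 fold change −1.82 ± 0.21, adjusted p = 6.9e-05). Most members of this lens list did not share these falls, 36 of 63 having a fold change above 0.

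Red blood cell genes were lower, led by hbae5. Of 20 tested, 8 were called lower (40% against 4.04% of all genes) and 1 higher (5% against 2.76%). The median was −0.49, and 4 calls held. The erythroid transcription factor gene klf1 had 5.23, 5.32 and 6.25 CPM on HP and 2.81, 3.37 and 3.63 CPM on LP (log2 fold change −0.77 ± 0.16, adjusted p = 0.00679). The carbonic anhydrase gene cahz had 121, 107 and 124 CPM on HP and 56.8, 84.2 and 62.7 CPM on LP (log2 fold change −0.79 ± 0.13, adjusted p = 0.00116). Lower calls on the list numbered 6, 7 and 4 without HP replicate 1, 2 or 3 and 4, 8 and 4 without LP replicate 1, 2 or 3. In both named genes, LP was below HP, and LP replicate 2 was the highest LP library for cahz. The list was below 0 on the median in pd1245 (−0.65) and near 0 in EK (−0.03). Of 28 iron genes 2 were called higher, in neither case with a call that held, and 2 lower (7.14% each way, against 2.76% and 4.04% of all genes). The ferritin gene fthl28 had 19.8, 17.3 and 14.6 CPM on HP and 7.94, 6.84 and 5.13 CPM on LP (log2 fold change −1.38 ± 0.19, adjusted p = 0.000388), and this call held.

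Immune genes had few calls. Of 37 neutrophil and macrophage genes 3 were called lower (8.11% against 4.04% of all genes) and 0 higher (median −0.03, and 5 lower without pd1245 LP replicate 3). The invariant chain genes of antigen presentation were among them, with cd74a at 20.5, 18.9 and 27.2 CPM on HP and 7.36, 9.07 and 10.3 CPM on LP (log2 fold change −1.31 ± 0.20, adjusted p = 0.000619) and cd74b at −1.19. Of 15 lymphocyte genes 2 were lower (13.3% against 4.04% of all genes) and 0 higher. Their median was −0.71, and 5 were lower without pd1245 LP replicate 3. RAG1, the recombinase of developing lymphocytes, had 16.8, 15.9 and 22.2 CPM on HP and 7.55, 9.76 and 7.19 CPM on LP (log2 fold change −1.17 ± 0.17, adjusted p = 0.000587). All 3 calls held and the libraries did not overlap. Of 32 interferon genes 2 were called lower (6.25% against 4.04% of all genes) and 0 higher, and neither call held. The direction of the calls turned without LP replicate 2, to 5 higher and 0 lower, and 0 were called either way without HP replicate 3.

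Fast muscle genes were called in both directions. Of 45 tested, 5 were called higher and 5 lower (11.1% each way, against 2.76% and 4.04% of all genes). Their median was 0.02 and their summed level overlapped between the diets. Without pd1245 LP replicate 3 the calls numbered 9 and 9. The higher calls numbered 0, 4 and 1 without HP replicate 1, 2 or 3 and 0, 3 and 5 without LP replicate 1, 2 or 3. The lower ones numbered 5, 3 and 3 without HP replicate 1, 2 or 3 and 3, 6 and 3 without LP replicate 1, 2 or 3. The calls that held were 3 falls and 0 rises. The myosin heavy chain gene myha had 17.6, 15.6 and 20.3 CPM on HP and 4.60, 4.46 and 5.17 CPM on LP (log2 fold change −1.91 ± 0.27, adjusted p = 0.000388). The troponin I gene TNNI2 (ENSDARG00000013752) had 12.0, 9.08 and 12.6 CPM on HP and 3.97, 4.06 and 3.25 CPM on LP (log2 fold change −1.58 ± 0.18, adjusted p = 8.43e-05). These falls held, as did that of tnnc2.1 (−0.66). The calcium pump gene atp2a1 had 2403, 2888 and 2346 CPM on HP and 5250.0, 4144 and 3487 CPM on LP (log2 fold change 0.75 ± 0.17, adjusted p = 0.0108), a rise lost without HP replicate 1 (adjusted p = 0.0518), HP replicate 3 (adjusted p = 0.0669) or LP replicate 1 (adjusted p = 0.0652). The oxygen-binding myoglobin gene mb had 35.9, 27.7 and 36.6 CPM on HP and 15, 16.6 and 17.6 CPM on LP (log2 fold change −1.02 ± 0.14, adjusted p = 0.000323), a fall that held.

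In the respiratory chain few genes were called with all libraries, among them subunits of cytochrome c oxidase. Of 117 tested, 8 were called lower in that fit (6.84%, near the 4.04% of all genes) and 0 higher. Of the same members 99 had a fold change below 0, and the median was −0.17. Without pd1245 LP replicate 3, 32 were lower and 2 higher, beside 7.76% and 7.48% of all genes. With only the pd1116 libraries 39 were lower and 2 higher, beside 8.87% and 7.68% of all genes. The test of the difference from EK called 0 members with all libraries. Without pd1245 LP replicate 3 it called 6, all with the lower fold change in pd1116, beside 0.552% of all genes. The subunit genes cox4i1l, COX6A1 (ENSDARG00000054588) and COX5B (ENSDARG00000068738) fell by 1.78, 1.02 and 0.82. COX6A1 (ENSDARG00000054588) had 19, 16.8 and 17.5 CPM on HP and 9.10, 8.97 and 8.27 CPM on LP (log2 fold change −1.02 ± 0.12, adjusted p = 0.000114). The 8 lower calls became 5, 6 and 6 without HP replicate 1, 2 or 3 and 6, 6 and 5 without LP replicate 1, 2 or 3. The calls of the named subunits held, and so did that of the mitochondrially encoded MT-ND3 (−0.52). Among 56 glutathione and antioxidant genes 5 were lower (8.93% against 4.04% of all genes) and 1 higher (18 and 1 without pd1245 LP replicate 3). The lower antioxidant calls numbered 4, 4 and 2 without HP replicate 1, 2 or 3 and 3, 3 and 2 without LP replicate 1, 2 or 3. The glutathione transferase gene gstt1a had 53.4, 59.7 and 51.6 CPM on HP and 27.7, 41.1 and 31.9 CPM on LP (log2 fold change −0.71 ± 0.15, adjusted p = 0.00693).

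Other lists had few calls, given here beside 2.76% higher and 4.04% lower over all genes. Calls higher and lower numbered 0 and 1 of 44 for glycolysis and gluconeogenesis (1 and 8 without pd1245 LP replicate 3) and 1 and 1 of 25 for slow and heart muscle. They numbered 2 and 2 of 31 for skin keratins, 1 and 2 of 29 for the acute phase and 1 and 2 of 17 for thyroid hormone genes. For the circadian clock they were 2 and 0 of 40, for the glucocorticoid response 0 and 1 of 27, for goblet and enteroendocrine cells 0 and 1 of 15, and for enzymes of DNA and histone methylation and acetylation 0 and 2 of 38. Of these calls 2 held in the acute phase, 2 in the thyroid list, 1 in goblet and enteroendocrine cells and 0 in the others. None of 28 Notch ligands, receptors and her targets was called by edgeR (1 at an unadjusted p under 0.05 and 0 by DESeq2, median −0.00; 1 higher without that library).

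**Figure D3:**
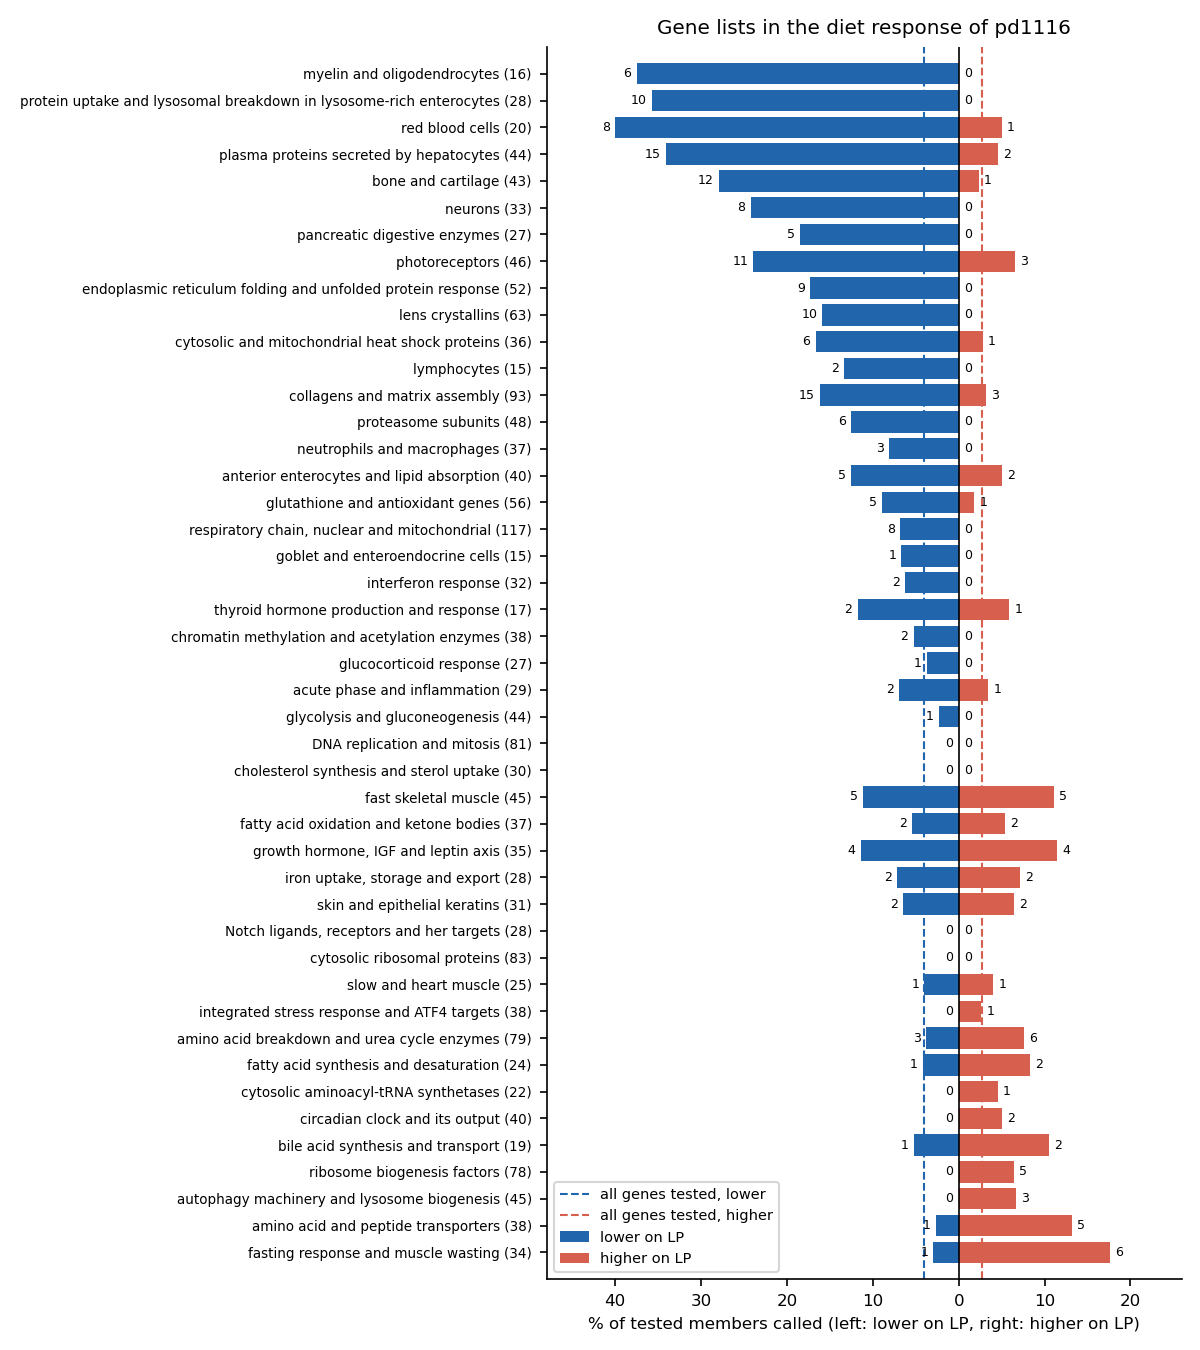
Share of each gene list called lower (left) and higher (right) on LP in pd1116, with the number of tested members in brackets, the number called at the bar end, and dashed lines at the shares over all genes (4.04% lower, 2.76% higher). Myelin, protein uptake, red cell, plasma protein and bone lists reach farthest to the left.

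**Figure D4:**
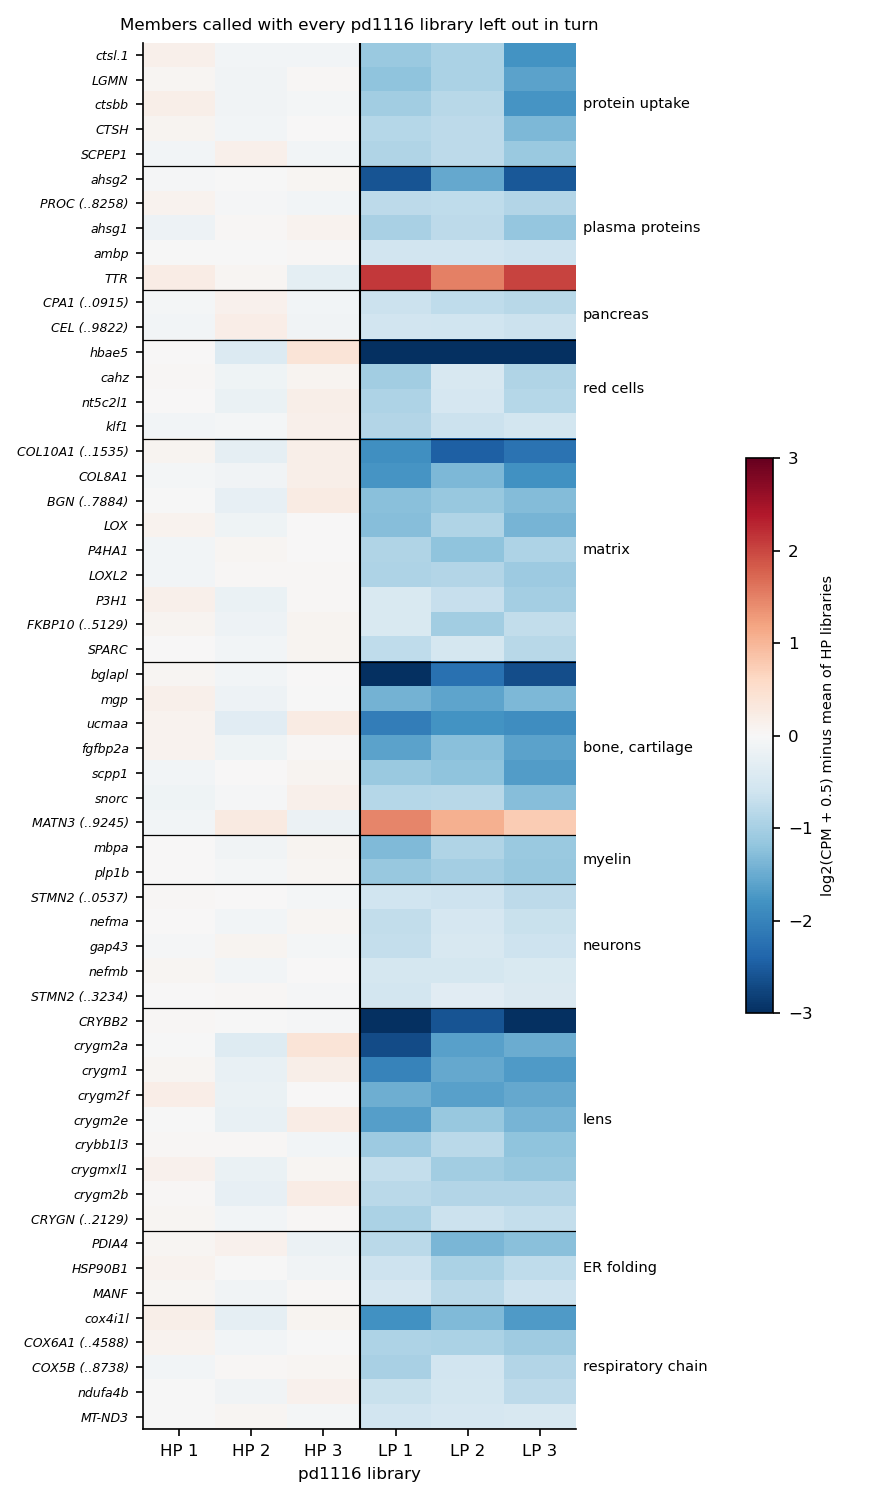
Log2(CPM + 0.5) in each pd1116 library minus the mean of the HP libraries, for reported members of 11 lists whose call held with every pd1116 library left out. LP columns are blue (lower) for nearly all genes and red (higher) for TTR and MATN3, and the HP columns stay near 0. This pattern follows from the choice of genes and the centring on HP. The lists drawn had mostly lower calls, and held rises of other lists are not drawn. Over all genes 113 of the 400 held calls were higher.

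The same genes were then read in the other lines, whose libraries are separate from those of pd1116. Of the 627 genes called higher in pd1116, 453 (72.2%) had a fold change above 0 in EK and 502 (80.1%) in pd1245, against 48.8% and 50.7% of all genes. Of the 918 called lower, 721 (78.5%) were below 0 in EK and 821 (89.4%) in pd1245, against 51.2% and 49.2% of all genes. The medians of the higher genes were 0.57 in pd1116, 0.10 in EK and 0.29 in pd1245. Those of the lower genes were −0.61, −0.15 and −0.37. In pd1245, 256 of the higher genes were also called higher (40.8%) and 414 of the lower genes lower (45.1%), while in EK 5 and 16 were. The genes were selected by their difference in pd1116, so its own medians are a description. Such selection enlarges them, so these medians cannot compare the size of the response between lines. Called in all, EK had 35 genes (0.154%), 11 higher (0.0484%) and 24 lower (0.106%), and pd1245 had 4346 (19.1%), 2122 higher (9.33%) and 2224 lower (9.78%). Without pd1245 LP replicate 3, EK had 175 (0.761%), 77 higher (0.335%) and 98 lower (0.426%), and pd1245 had 2680 (11.6%), 1169 higher (5.08%) and 1511 lower (6.57%).

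The test of the difference in diet response between pd1116 and EK called 1 gene (0.0044%), cbln6, with 2600 genes at an unadjusted p under 0.05 and 162 calls by DESeq2. Its level in EK was 3.27, 6.49 and 5.57 CPM on HP and 2.04, 2.12 and 2.60 CPM on LP, in every LP library above the pd1116 LP libraries, and in pd1245 7.41, 3.32 and 4.51 CPM on HP and 0.328, 0.309 and 0 CPM on LP. The difference in log2 fold change was −5.43 ± 0.80, adjusted p = 0.0416, and it passed in 9 of 20 alternatives. It failed with the stricter filter, with the replicate block and without EK HP replicate 1, any EK LP replicate, pd1116 HP replicates 1 or 2 or any pd1116 LP replicate (adjusted p up to 0.227). Without pd1245 LP replicate 3 the count was 226 (0.982%), 99 higher (0.43%) and 127 lower (0.552%), and with only the 4 groups compared 598. Leaving out a library of either line otherwise gave 0 to 6 genes, with 6 without pd1116 HP replicate 3, 4 without pd1116 LP replicate 2 and 3 without EK HP replicate 3.

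Between pd1116 and pd1245, 140 genes (0.616%) differed in their diet response, 110 with the higher fold change in pd1116 (0.484%) and 30 with the lower (0.132%). The count was 20, 49 and 29 without pd1116 HP replicate 1, 2 or 3 and 28, 51 and 47 without pd1116 LP replicate 1, 2 or 3. It was 62 and 24 without pd1245 HP replicate 1 or 3, 488 without pd1245 LP replicate 1 and 191 (0.83%) without pd1245 LP replicate 3, 163 higher (0.708%) and 28 lower (0.122%). It was 18 with only the 4 groups compared and 478 by DESeq2.

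Gut genes were among those with the higher fold change in pd1116. The level of dpp4 in pd1245 was 49.5, 56.2 and 63.8 CPM on HP and 49.8, 54.3 and 39.1 CPM on LP, a difference in log2 fold change of 1.12 ± 0.17, adjusted p = 0.00937. For fut9d the pd1245 libraries had 40.4, 52.7 and 45.5 CPM on HP and 45.1, 42.0 and 27.3 CPM on LP, high on both diets, while pd1116 rose from 6.43 ± 1.59 to 21.7 ± 2.62 CPM (mean ± SD, n = 3), and the difference was 2.03 ± 0.27, adjusted p = 0.00767. In fut9d the EK libraries had 13.1, 9.67 and 13.8 CPM on HP and 27.2, 30.3 and 35.0 CPM on LP. The scaffold gene NHERF4 (ENSDARG00000055656), of the brush border, rose in pd1116 (0.74, adjusted p = 0.0114, lost without HP replicate 3 (adjusted p = 0.0608) or LP replicate 1 (adjusted p = 0.0602)) and fell in pd1245 (−0.88), a difference of 1.62 ± 0.23, adjusted p = 0.00767. The same opposition, with lower calls in pd1245, was seen in SLC7A7 (1.0 ± 0.15, adjusted p = 0.00777), ogal (1.17 ± 0.17, adjusted p = 0.00777) and the fin fold gene and3, encoding an actinodin (1.17 ± 0.18, adjusted p = 0.00979). These 6 differences passed in all 19 alternatives run. In EK the log2 fold change of and3 was 0.56 ± 0.13 (adjusted p = 0.116), beside 0.61 ± 0.13 in pd1116 (adjusted p of their difference 0.951). The rise within pd1116 was lost for SLC7A7 without HP replicate 2 (adjusted p = 0.0528), HP replicate 3 (adjusted p = 0.0899) or LP replicate 1 (adjusted p = 0.0756) and for and3 without HP replicate 3 (adjusted p = 0.0642) or LP replicate 2 (adjusted p = 0.0519).

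Of the named genes with the lower fold change in pd1116, chia.3, COCH, c6ast3 and mb were called lower in pd1116 and not called in pd1245. The chitinase gene chia.3 had 47.5, 40.1 and 73.1 CPM on HP and 47.0, 53.4 and 70.14 CPM on LP in pd1245, a difference of −1.96 ± 0.28, adjusted p = 0.00767 that passed in all 19 alternatives. COCH, which encodes cochlin, a secreted protein known from the inner ear, had 134, 116 and 213 CPM on HP and 28.2, 32.8 and 33.4 CPM on LP in pd1116 and 34.6, 41.0 and 32.9 CPM on HP and 35.0, 37.8 and 28.3 CPM on LP in pd1245. The pd1245 libraries were low on both diets, at about the pd1116 LP level. The difference was −2.20 ± 0.38, adjusted p = 0.0192, lost without pd1116 LP replicate 1 or pd1245 HP replicate 3 (adjusted p up to 0.0644). In EK, COCH was also called lower on LP (−1.38 ± 0.27, adjusted p = 0.0444). Its difference between pd1116 and EK was not called (−0.92 ± 0.37, adjusted p = 0.342). The gut protease gene c6ast3 differed by −1.29 ± 0.24, adjusted p = 0.0247, and mb by −1.13 ± 0.20, adjusted p = 0.022. The c6ast3 call was lost without pd1116 HP replicates 1 or 2, pd1116 LP replicates 1 or 3 or pd1245 HP replicate 3 (adjusted p up to 0.067), and the mb call without pd1116 HP replicates 1 or 3, pd1116 LP replicate 1 or pd1245 HP replicate 3 and with only the groups compared (up to 0.0694). The transcription factor gene zhx3a fell in pd1116 (−0.58, a call lost without HP replicate 3 (adjusted p = 0.0686) or LP replicate 1 (adjusted p = 0.055)) and rose in pd1245 (0.48), a difference of −1.07 ± 0.18, adjusted p = 0.015 that passed in all 19 alternatives. It was not called in EK (−0.50, adjusted p = 0.155). The aminotransferase gene GPT (ENSDARG00000055642) was not called in pd1116 (−0.33, adjusted p = 0.136) and rose in pd1245 (0.81), a difference of −1.13 ± 0.18, adjusted p = 0.0126 that was lost with only the groups compared.

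**Figure D5:**
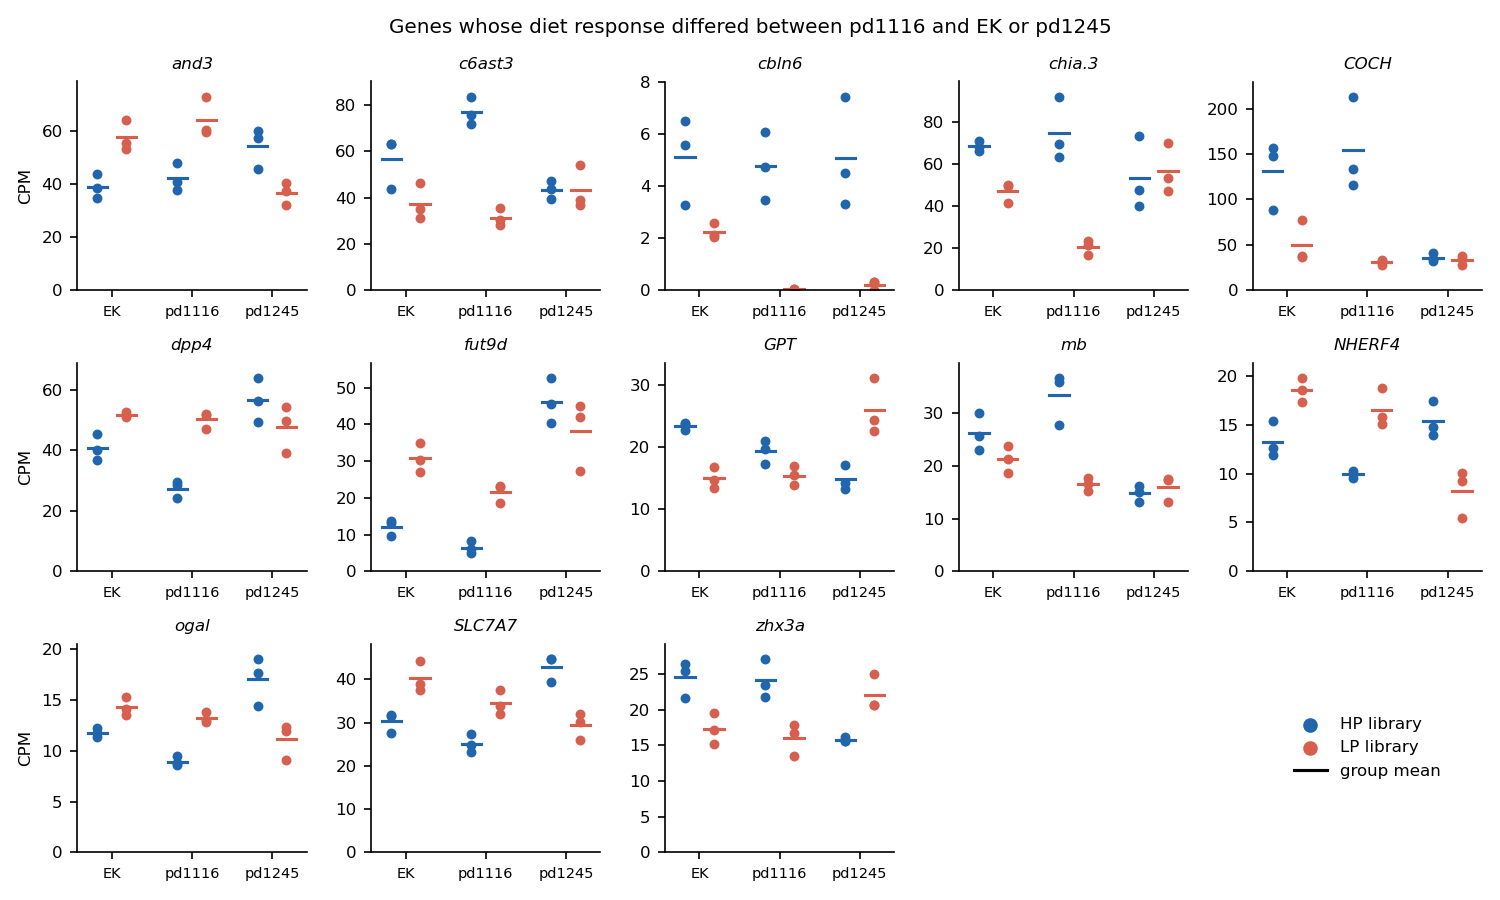
CPM in each of the 18 libraries for the 13 named genes whose diet response differed between pd1116 and EK (cbln6) or pd1245 (the rest), with bars at the means of 3 libraries. In chia.3, COCH, c6ast3 and mb the pd1116 HP libraries stand above the pd1116 LP libraries while the pd1245 diets overlap.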

How the data were processed

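Whole-larva poly(A) RNA was sequenced as strand-specific libraries, per the labels' protocols. Values are raw HTSeq counts per gene as deposited by the authors, made with FastQC 0.11.7, Trim Galore 0.6.5, STAR 2.7.3a and HTSeq 0.11.1 on GRCz11, per the submitters' processing notes; the annotation release and strand setting are not given in the sources used here. Rows naming no gene (15.0 to 16.2% of pd1116 counts) were dropped. Of 32520 genes, 29201 matched a symbol. edgeR 4.0.16 (R 4.3.3) fitted all 18 libraries of the first experiment, 1 coefficient per group, with TMM factors and filterByExpr (22742 genes), the quasi-likelihood F test and Benjamini-Hochberg adjustment at 0.05; the procedure was tested on simulated data. Alternatives were RLE and upper quartile factors, other filters, DESeq2 1.42.0, a replicate block, fewer groups and libraries left out. Named genes are pllp, the 10 largest changes each way (mean of at least 2 CPM, no overlap, no clone name), up to 4 called members per list with the smallest p and 6 per direction per difference; other list members named were chosen after their values were seen, and some results under this rule are not reported here. The samples, the 45 lists and these rules were chosen with earlier results of these data known. Counts were checked for duplicate libraries within each group, and none was found.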

Additional observations from a re-analysis of the deposited data

Results flagged for a closer look

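Genes are flagged here because the effect of the LP diet differed between lines in a test of the difference itself. Against EK, the log2 fold change of cbln6 in pd1116 was lower by 5.43. Against pd1245, the difference in log2 fold change was 1.17 for and3, 1.12 for dpp4, 2.03 for fut9d, 1.62 for NHERF4 (ENSDARG00000055656), 1.17 for ogal and 1.00 for SLC7A7. It was −1.29 for c6ast3, −1.96 for chia.3, −2.20 for COCH, −1.13 for GPT (ENSDARG00000055642), −1.13 for mb and −1.07 for zhx3a. Positive values mean a higher fold change of LP over HP in pd1116. Of these genes, COCH was also called lower on LP in EK (−1.38, adjusted p = 0.0444), and and3 had 0.56 in EK (adjusted p = 0.116). The cbln6 value was −5.43 on that scale and rests on 1 count in each pd1116 LP library. One of the pd1245 LP libraries, replicate 3, stands apart in its ribosomal protein share (14.5%), and without it the adjusted p of the 12 pd1245 differences ran from 0.00109 to 0.0205. Whether library composition had a part in these differences was not tested.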

How the results depend on the processing

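The 1545 genes called in pd1116 became 1546 with RLE factors, 1528 with upper quartile factors, 1459 with no filter, 1631 with a stricter filter and 2045 with DESeq2. Higher and lower calls were 1687 and 1949 of 3636 with only the pd1116 libraries, and 1721 and 1785 of 3506 without pd1245 LP replicate 3. That library widens the spread all groups share: the biological coefficient of variation was 12.5% with it, 9.68% without it and 9.11% in pd1116 alone. Leaving out 1 pd1116 library left 1 group with 2 libraries and gave 520 to 905 genes, 164 to 326 higher and 356 to 579 lower, and 183 to 264 at least 2-fold (chosen after seeing the data, as were the list counts under other settings). The direction turned in 1 result, the log2 fold change of pllp, which ran from −0.034 (without pd1116 LP replicate 2) to 0.12 (without LP replicate 1) on leaving out a library. Differences from EK numbered 3 with no filter, 0 with the stricter filter and with the replicate block, 162 with DESeq2, 598 with only the groups compared, 226 without pd1245 LP replicate 3, and 0 to 6 without 1 library of the groups compared. Differences from pd1245 numbered 75 with the replicate block, 18 with only the groups compared, 478 with DESeq2 and 20 to 488 without 1 library. The cause of these shifts was not tested. Replicate numbers did not pair the libraries: same-numbered HP and LP libraries of pd1116 correlated at 0.00995, −0.0313 and 0.000588 in their deviations from the group means, and with the number as a block 1392 genes were called, 559 higher and 833 lower. At 19838912 counts or more per library, genes of a few counts, such as cbln6 on LP, keep wide counting intervals. Of 160 gene results, 155 were called, and 90 of these kept their call under every alternative run.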
